A study of Rattus norvegicus with 4 samples.

Results

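The structural genes of the cornified envelope examined here were Loricrin, Ivl, Sprr1a, Sprr1b, Sprr2d, Sprr3, Cnfn, Krtdap, Evpl and Ppl. They were taken as every probe set annotated to these 10 symbols, which gave 11 probe sets for 10 of the 14218 genes named on the array. Krtdap had 2 probe sets and the other 9 genes had 1 each. The cells were ROE2, immortalized epithelium taken from the tongue of a transgenic Wistar rat at fetal day 18. The transgene, pSVtsA58ori(-)-2, encodes a temperature-sensitive large T antigen of SV40, which keeps cells dividing in the cool and is inactivated by warming. All 4 cultures carried the transgene, grew on collagen type I in medium with 2% serum and 10 ng/ml EGF, and spent 24 h at 33 °C. They were then harvested after 0, 3, 6 or 9 days at 37 °C, with day 0 labelled as the control. Each day had 1 array, so no difference below has a replicate check or a p-value, and the day cannot be told apart from the array, the culture or the time in culture. ROE2 is a single line, so the values describe it alone.

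The cornified envelope is a shell of cross-linked protein that replaces the plasma membrane of dying surface cells in stratified epithelia. Envoplakin and periplakin, with involucrin, form its first scaffold under the membrane, and transglutaminases then cross-link loricrin and the small proline-rich (SPRR) proteins onto it. Loricrin is the bulk protein of the envelope in skin, whereas SPRR proteins are prominent in the lining of the mouth and oesophagus. In rodents and humans the genes for loricrin, involucrin and the SPRR proteins lie together in the epidermal differentiation complex, beside the S100 and late cornified envelope genes.

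The sequences before the start sites of the family are shown because AP-1, the Fos and Jun factor that several envelope genes are known to use, has matches there. RefSeq promoter sequence on the GRCr8 build was found for 8 of the 10 genes, and the 250 bases before each annotated start were searched on both strands. The AP-1 letters TGANTCA were present in 4 of the 8, against 6.34% of 33469 promoters of the same length. The 4 are printed 5′ to 3′ along each gene, ending at the last base before its start, with AP-1 matches and TATAAA matches in capitals.
Loricrin, chr2:180256573-180256822, minus strand: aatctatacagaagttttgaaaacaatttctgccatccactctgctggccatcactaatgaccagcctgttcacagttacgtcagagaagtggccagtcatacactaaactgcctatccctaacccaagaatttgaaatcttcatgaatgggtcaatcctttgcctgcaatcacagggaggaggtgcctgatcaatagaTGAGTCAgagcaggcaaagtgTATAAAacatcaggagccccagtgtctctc
Sprr1a, chr2:180752626-180752875, minus strand: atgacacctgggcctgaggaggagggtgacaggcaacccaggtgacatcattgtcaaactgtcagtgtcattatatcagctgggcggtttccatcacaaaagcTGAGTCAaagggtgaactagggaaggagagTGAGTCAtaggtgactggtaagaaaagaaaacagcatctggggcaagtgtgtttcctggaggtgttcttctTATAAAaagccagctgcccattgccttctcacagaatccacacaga
Sprr1b, chr2:180706356-180706605, minus strand: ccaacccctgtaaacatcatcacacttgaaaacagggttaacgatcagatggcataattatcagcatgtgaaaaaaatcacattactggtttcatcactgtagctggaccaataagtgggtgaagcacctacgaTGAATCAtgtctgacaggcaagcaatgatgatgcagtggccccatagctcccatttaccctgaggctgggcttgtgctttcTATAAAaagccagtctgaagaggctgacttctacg
Krtdap, chr1:95165612-95165861, plus strand: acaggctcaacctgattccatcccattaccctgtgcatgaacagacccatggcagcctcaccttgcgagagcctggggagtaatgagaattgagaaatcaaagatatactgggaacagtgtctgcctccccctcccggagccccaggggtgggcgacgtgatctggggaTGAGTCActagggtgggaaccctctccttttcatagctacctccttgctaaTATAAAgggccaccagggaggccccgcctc

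In Loricrin the AP-1 match began 51 bases before the start and the TATAAA match 30 bases before it. Krtdap carried them at 81 and 30 bases. Sprr1a had 2 AP-1 matches, at 147 and 117 bases, and Sprr1b had 1, at 116 bases. The match in Sprr1b reads TGAATCA and the other 4 read TGAGTCA. The TATA box letters TATAAA were present in the same 4 genes of the 8, against 12.9% of all promoters. The KLF letters CACCC were in 7 of the 8 and in 49.2% of all promoters. The ETS letters GGAAGT were in 1 of the 8, Cnfn, and in 19.2% of all promoters. No match overlapped a match of another motif. A match is a description of these letters and does not show that a factor binds.

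**Figure D1:**
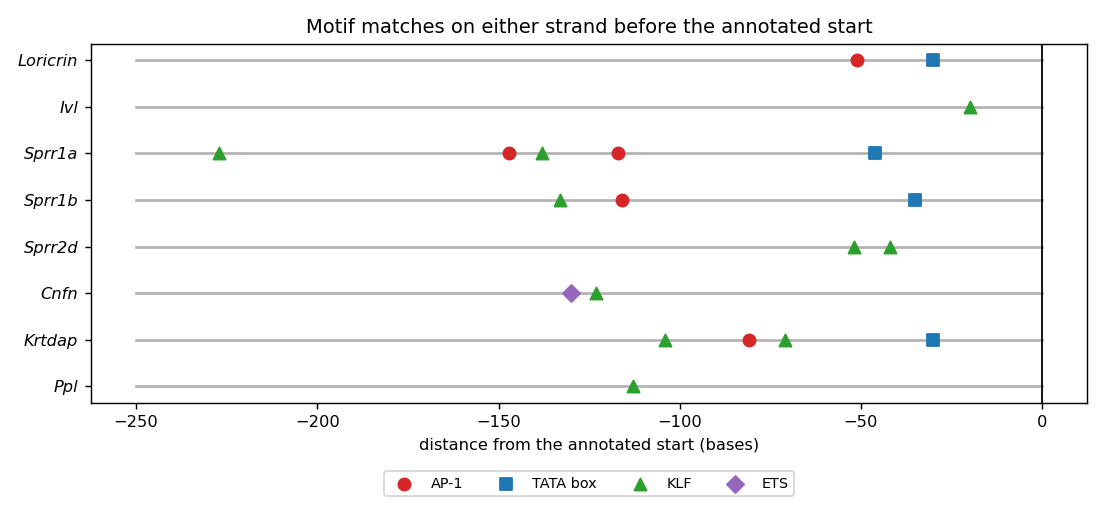
Position of motif matches on either strand in the 250 bases before the annotated start of 8 envelope genes, with distance from the start in bases on the horizontal axis. AP-1 (circles) and TATA box (squares) matches fall in Loricrin, Sprr1a, Sprr1b and Krtdap, whereas KLF matches (triangles) are in 7 of the 8 genes.

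The values are on the log2 scale after the arrays were brought to a common distribution, so total RNA per cell is outside what they measure, and in these bulk cultures fewer cells making a transcript cannot be told apart from less transcript per cell. A gene was called higher or lower when its log2 values on 2 days were at least 1 apart, which is 2-fold, among the 8802 genes that reached a log2 value of 6 on any array. Of the 10 envelope genes 9 reached that value. The remaining gene, Ivl, did not. The basal keratin markers Krt5 and Krt14 were bright on all 4 arrays, and Krt14 was the brightest probe set on day 0, at 14.11. Of the oral surface keratin pair, Krt13 read 9.68, 12.23, 13.55 and 13.91 on days 0, 3, 6 and 9, whereas its partner Krt4 was below 6 throughout, at 4.93 on day 9. The epithelial regulator gene Tp63 and the stratifin gene Sfn differed by 0.41 and 0.36 on day 9 from day 0. Of 6 fibroblast markers and 2 endothelial markers none passed 6 on any array, with highest values of 3.94 and 4.03. Of 4 immune markers Cd68, a lysosomal glycoprotein, passed it, at 5.32, 6.54, 6.27 and 6.18 on days 0, 3, 6 and 9, while the leukocyte and T cell genes Ptprc and Cd3e stayed at 3.13 or below. Of 3 muscle markers Acta2 and Myh11 passed it. Acta2 read 6.65, 6.38, 7.07 and 6.79, and Myh11, a smooth muscle myosin gene, read 6.18, 6.66, 7.33 and 7.05 and was called higher on day 6. The part of such cells in the results was not tested. The hybridisation spike-ins, added in equal amount to each array, stood 0.14, 0.39 and 0.63 above day 0 on days 3, 6 and 9 (median of 18 probe sets), which bears on every difference from day 0.

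Among the 9 measured envelope genes 1, 3 and 5 were 2-fold or more higher than on day 0 on days 3, 6 and 9, and 0 were 2-fold or more lower. The share of all genes called higher was 4.31% on day 3, 5.74% on day 6 and 5.57% on day 9, and the share called lower was 2.15%, 8.08% and 6.25%. Loricrin was called on all 3 days, Sprr3 and Evpl on days 6 and 9, and Sprr2d and Cnfn on day 9. The median difference of the 9 genes was 0.79, 0.97 and 1.00 on the log2 scale on days 3, 6 and 9, against -0.05, -0.18 and -0.14 for all 8802 genes. Under spike-in centring the members' medians on days 6 and 9 were 0.58 and 0.37, the genes called on day 9 were 2, Loricrin and Sprr3, and the medians of all genes were -0.58 and -0.79. Cnfn lay just inside the 2-fold line on day 9, at 1.005, and Krtdap just outside it, at 0.95.

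**Figure D2:**
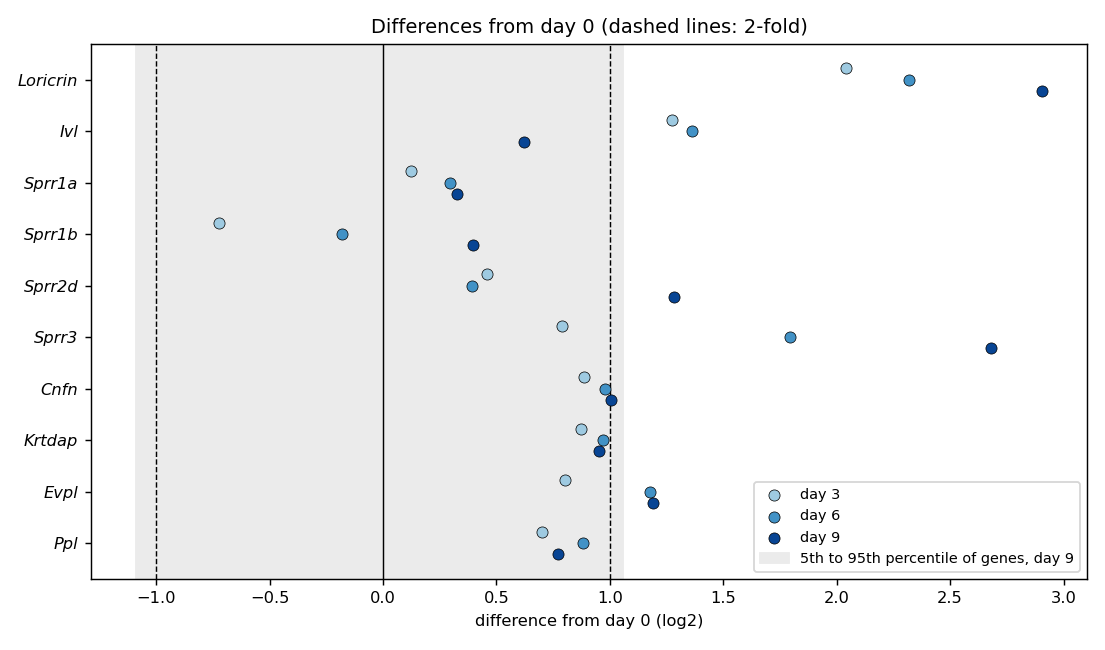
Difference from day 0 on the log2 scale (horizontal axis) for each envelope gene (vertical axis) on days 3, 6 and 9 (light to dark points), with dashed lines at 2-fold and a grey band for the 8802 genes on day 9 without the lowest and highest 5%, from -1.09 to 1.06. Loricrin and Sprr3 lie furthest to the right on day 9. Sprr1a, Sprr1b, Krtdap and Ppl stay inside the 2-fold lines on all days, and Ivl is shown although its levels are near the bacterial controls.

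Loricrin, which encodes the glycine-rich protein that makes up most of the envelope in skin, had values of 10.38, 12.42, 12.70 and 13.29 on days 0, 3, 6 and 9. It was higher on each later day than on the one before. The day 9 value was 7.49-fold that of day 0, and 24 of the 8802 genes had a larger increase. Most of the difference was present early, since day 3 lay 2.04 above day 0, or 70.2% of the day 9 difference on the log2 scale. The next steps were 0.28 to day 6 and 0.59 to day 9. Under spike-in centring the day 9 difference was 2.27.

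Ivl, which encodes involucrin, the glutamine-rich scaffold protein that is an early substrate of transglutaminase, was dim. Its probe set read 3.89, 5.16, 5.25 and 4.51 on days 0, 3, 6 and 9, where the brightest of 27 bacterial control probe sets read 4.19, 4.36, 4.51 and 4.56. It was thus above those controls only on days 3 and 6, by 0.80 and 0.74. Days 3 and 6 read 1.96-fold and 2.08-fold the brightest control of day 0, on 1 array each and without allowance for the spike-in shift. No fold is given for day 9. Under spike-in centring the differences from the day 0 value of Ivl were 1.13, 0.97 and -0.01 on days 3, 6 and 9.

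The SPRR genes encode short proteins with proline-rich repeats and glutamine- and lysine-rich ends that transglutaminase joins as cross-bridges. Sprr3, whose protein is abundant in non-keratinized oral and oesophageal epithelium, read 9.46, 10.25, 11.25 and 12.14 on days 0, 3, 6 and 9. Its 3 steps were alike, at 0.79, 1.01 and 0.89, and day 9 stood 6.42-fold above day 0. For the step from day 6 to day 9, 39 of 8802 genes had a larger increase, and for the step from day 3 to day 6, 71 did.

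Sprr2d, of the large SPRR2 subfamily, read 11.09, 11.55, 11.48 and 12.37. It was nearly level on days 3 and 6 and most of its difference came last. Day 9 was 0.89 above day 6, with 37 genes showing a larger increase over that step, and 2.43-fold above day 0. On day 9 against day 6, 0.25% of all genes were called higher and 0 of the 9 envelope genes were. The closest below that line were Sprr2d and Sprr3, both at 0.89.

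Sprr1b read 10.38, 9.66, 10.20 and 10.78 and was the 1 measured envelope gene below its day 0 value on days 3 and 6. The difference was -0.72 on day 3, -0.18 on day 6 and 0.39 on day 9, none of them 2-fold. Between day 3 and day 9 it gained 0.54 and then 0.57. Under spike-in centring the day 9 difference was -0.24, and with arrays centred on the median gene the day 6 difference was 0.0019, so its direction on those days depends on the scaling.

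Sprr1a read 13.91, 14.03, 14.20 and 14.23. These were the 14th, 6th, 2nd and brightest of 31099 probe sets on the arrays of days 0, 3, 6 and 9, and the day 9 value was the top of the scale on that array. Its difference from day 0 was 0.12, 0.30 and 0.32. Under spike-in centring it was -0.09 on day 6 and -0.31 on day 9. Of the 79 genes with a day 0 value of 13 or more, 0 stood 2-fold above it on day 9 and 1.27% stood 2-fold below. The largest increase among them was 0.91. Of the 2572 genes at 9 to 11 on day 0, 3.93% were higher and 5.83% lower. Genes this bright were thus seldom called in either direction. Whether the top of the scale limited Sprr1a was not tested, and whether its transcript changed cannot be read from these values.

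The SPRR genes are close relatives. The probe sequences were not examined here, so how far a probe set reads a neighbouring SPRR transcript as well was not tested, and RefSeq lists Sprr1b among the old names of Sprr1a.

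Cnfn encodes cornifelin, an envelope protein of the upper layers, and Krtdap encodes a small secreted protein of differentiating keratinocytes. Cnfn read 12.70, 13.58, 13.68 and 13.70 on days 0, 3, 6 and 9. The brighter Krtdap probe set read 12.81, 13.68, 13.78 and 13.76, and the other 12.57, 13.59, 13.82 and 13.78. Both genes were high on every day and made nearly all of their difference by day 3, when Cnfn was 0.89 above day 0 and the Krtdap probe sets 0.87 and 1.02. From day 6 to day 9 they moved by 0.03, -0.02 and -0.04. Under spike-in centring Cnfn was 0.75, 0.59 and 0.37 above day 0 on days 3, 6 and 9. The brighter Krtdap probe set was 0.73, 0.58 and 0.32 above it, so the level course after day 3 depends on the scaling.

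On days 6 and 9 the second Krtdap probe set was 1.24 and 1.21 above day 0, so Krtdap passes 2-fold with it on each day and with the brighter probe set on none. The brighter probe set carries a cross-hybridisation mark in its name and the second does not. Used in place of the brighter, the second brings the envelope genes called to 2, 4 and 6 on days 3, 6 and 9. The shares of all genes called higher were then 4.32%, 5.75% and 5.58%. On days 3, 6 and 9 the Cnfn and Krtdap values lay within 0.55 of the brightest probe set of their array, so a further increase after day 3 could have gone unseen.

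**Figure D3:**
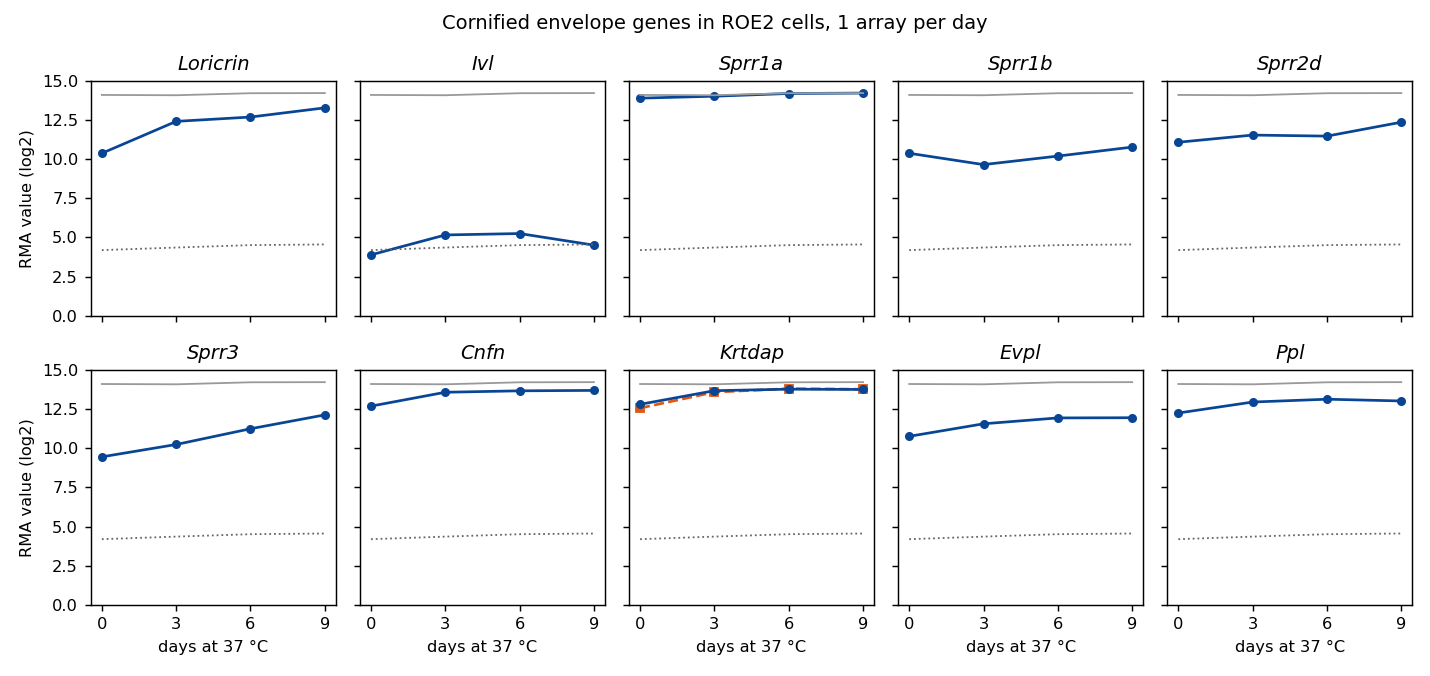
RMA value on the log2 scale (vertical axis) by days at 37 °C (horizontal axis) for the 10 envelope genes, 1 array per day. Blue points are the probe set that stands for the gene, orange squares the second Krtdap probe set, the solid grey line the brightest probe set of each array and the dotted line the brightest bacterial control. Sprr1a lies along the upper line and Ivl close to the lower.

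Evpl and Ppl encode envoplakin and periplakin, plakin proteins that bind each other and tie the early envelope to keratin filaments and desmosomes. Evpl read 10.77, 11.57, 11.94 and 11.96 on days 0, 3, 6 and 9 and Ppl read 12.26, 12.96, 13.14 and 13.03. Both were above day 0 on each later day and flat or slightly down from day 6 to day 9, by 0.01 and -0.11. Evpl was 2.28-fold higher on day 9 than on day 0, and Ppl 1.70-fold. Ppl was not called on any day. Of all genes 4.31%, 5.74% and 5.57% were called higher on days 3, 6 and 9, and 2.15%, 8.08% and 6.25% lower. Near those shares, 0 of 5 other plakin genes (Dsp, Plec, Dst, Macf1 and Eppk1) were 2-fold or more apart from day 0 on any day. Their median on day 9 was -0.43, or -1.07 under spike-in centring, with Macf1 at -0.51, Dst at -0.45, Plec at -0.43, Eppk1 at -0.11 and the desmoplakin gene Dsp at 0.35. On that day Evpl was 1.19 and Ppl 0.77 above day 0, or 0.55 and 0.14 under spike-in centring. No test of the difference between these genes was possible.

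The genes thus moved on different steps. The step from day 0 to day 3 was the largest of the 3 for Loricrin, Cnfn, Krtdap, Evpl and Ppl. The later steps of Cnfn and Krtdap were read near the top of the scale, and under spike-in centring they went down. The steps of Ivl start or end near the controls and those of Sprr1a lie near the top, so they were not ranked. The 3 steps of Sprr3 were alike, at 0.79, 1.01 and 0.89. For Sprr2d the step to day 9 was the largest. Sprr1b went down and then up. From day 3 to day 6, 0.829% of all genes were called higher, and among the envelope genes Sprr3 was called.

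**Figure D4:**
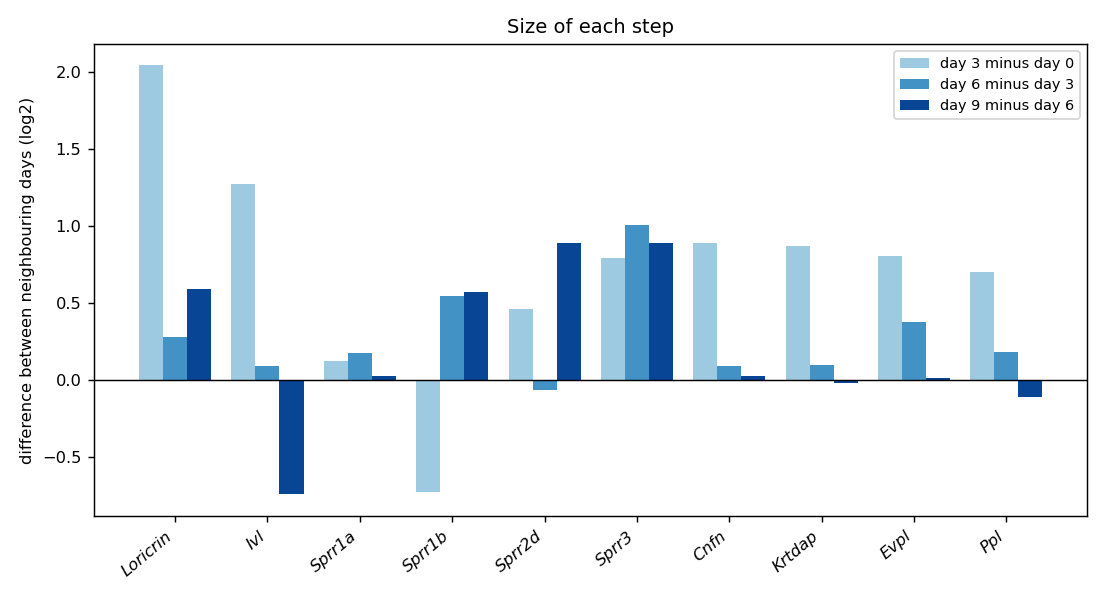
Difference between neighbouring days on the log2 scale (vertical axis) for each envelope gene, with bars for day 3 minus day 0, day 6 minus day 3 and day 9 minus day 6 (light to dark). The Loricrin bar to day 3 is 2.04, the 3 Sprr3 bars are 0.79, 1.01 and 0.89, and the Cnfn, Krtdap, Evpl and Ppl bars to day 9 are near 0.

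Of the 10 genes 6 lie on chromosome 2 in the epidermal differentiation complex, Cnfn and Krtdap on chromosome 1, and Evpl and Ppl on chromosome 10, by the RefSeq annotation of GRCr8. Sprr1b and Sprr3 have 1 annotated gene between them, and day 9 differed from day 0 by 0.39 for Sprr1b and 2.68 for Sprr3. Sprr1a has 0 annotated genes between it and Sprr3, but it read near the top of the scale and its course was not compared. From S100a1 to S100a10 the annotation places 101 genes, of which the array names 22 beside the 6 envelope genes, and 15 of these 22 passed the value of 6. On day 9, 5.57% of all genes were 2-fold or more higher and 6.25% lower. Of the 15, 4 were higher and 1, near that share, lower, with a median of 0.27 that becomes -0.36 under spike-in centring. The 9 S100 genes among them, which encode calcium-binding proteins, had a median of -0.60, -0.49 and -0.05 on days 3, 6 and 9, the last of which is -0.68 under spike-in centring and 0.09 with arrays centred on the median gene. On day 9 S100a4 was lower, at -1.18, and S100a16 higher, at 1.10.

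The other 6 had a median of 1.02, 0.87 and 0.78 on days 3, 6 and 9, and the day 9 median was 0.15 under spike-in centring. While 4.31%, 5.74% and 5.57% of all genes were called higher on these days, 3 of the 6 were on each day. Those were Kprp, a proline-rich keratinocyte gene, at 1.92 on day 9, Tchh, which encodes the envelope and hair follicle protein trichohyalin, at 1.34, and Kplce at 1.09. The late cornified envelope gene Lce3b read 13.86, 13.92, 13.94 and 14.13 on days 0, 3, 6 and 9, which is near the top of the scale. S100a16 and Kplce fell outside the rule for named genes and are named because their values were among the few called.

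**Figure D5:**
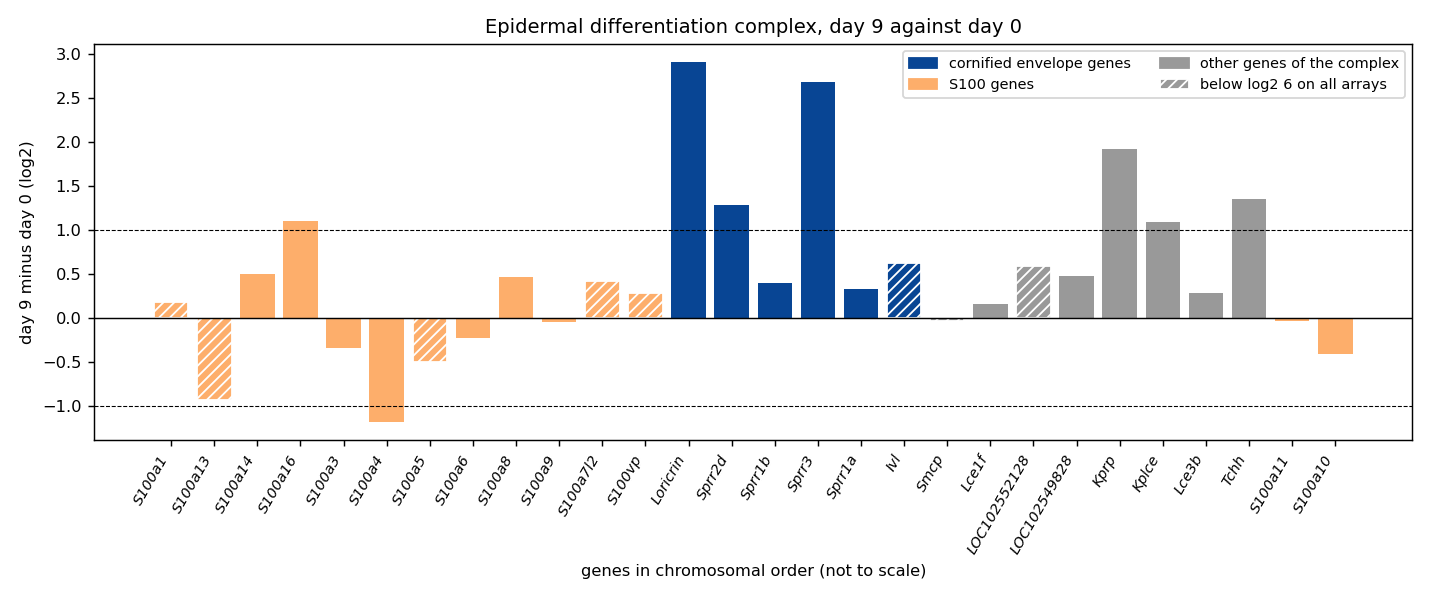
Day 9 minus day 0 on the log2 scale (vertical axis) for the genes of the epidermal differentiation complex named on the array, in chromosomal order and not to scale, with dashed lines at 2-fold. Blue bars are the 6 envelope genes of the complex, orange bars S100 genes and grey bars the other genes, and hatched bars stayed below a log2 value of 6. Loricrin and Sprr3 have the tallest bars, at 2.91 and 2.68.

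Of 20 other envelope precursors and junction proteins to which the envelope is anchored, 14 were named on the array and all 14 passed the value of 6. On days 3, 6 and 9, 6, 8 and 9 of them were 2-fold or more higher than on day 0 and 0 were lower. The shares of all genes were 4.31%, 5.74% and 5.57% higher and 2.15%, 8.08% and 6.25% lower, so 0 of 14 lower is near them. The medians of the 14 were 0.63, 1.10 and 1.34, the last 0.70 under spike-in centring. Krt1, a suprabasal keratin bound into the envelope, read 4.32, 5.78, 6.50 and 6.80 on days 0, 3, 6 and 9, so its day 0 value was close to the brightest bacterial control of 4.19. It reached 6 only on days 6 and 9, and is counted as higher on day 3 from values below 6. Its entry in the counts thus came through the days on which it is high. On day 9 Cdsn, which encodes the desmosomal adhesion protein corneodesmosin, was 2.14 higher and Kprp 1.92. Of 4 transglutaminase genes, whose products make the cross-links, Tgm1 and Tgm3 passed the value of 6. Tgm1, the membrane-bound enzyme, read 11.51, 12.87, 12.85 and 12.82 on days 0, 3, 6 and 9, and Tgm3 read 6.50, 7.25, 7.85 and 8.71. Tgm1 moved little after day 3, while Tgm3 was higher on each later day than on the one before.

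Of 18 transcription factor genes known to act on envelope gene promoters, 16 were named on the array and 15 passed the value of 6. On days 3, 6 and 9, 8, 11 and 9 of the 15 were 2-fold or more higher and 0 were lower. The shares of all genes were 4.31%, 5.74% and 5.57% higher and 2.15%, 8.08% and 6.25% lower, so 0 of 15 lower is near them. The medians of the 15 were 1.30, 1.42 and 1.61, the last 0.98 under spike-in centring. Cebpa, which encodes a C/EBP factor of non-dividing keratinocytes, was 2.99 higher on day 9, Znf750 2.46 and Prdm1 2.32. The AP-1 genes, named because their motif was searched above, differed among themselves. On day 9 Fosl2 was 1.91, Junb 1.77 and Fos 1.61 above day 0, Jun was at 0.63, Jund at 0.12 and Fosl1 at -0.26, and Fosb was below 6 on all arrays. The KLF motif was searched as well, and of the KLF genes listed Klf4 was 0.35 and Klf5 1.05 above day 0 on day 9.

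Among the 8793 other genes above the value of 6, the closest course to each envelope gene was sought by the Euclidean distance between the 3 differences from day 0, so likeness is over 4 arrays of 1 series. Loricrin lay closest to Stfa3, a stefin gene of the cystatin protease inhibitor family, at a distance of 0.23. Stfa3 read 10.38, 12.62, 12.79 and 13.23 on days 0, 3, 6 and 9, and Them5, an acyl-CoA thioesterase gene that read 4.32 on day 0, close to the controls, came next. Teddm3 came out nearest to Sprr3, but its day 0 value of 3.56 was below the brightest bacterial control, so its distance is not given. The next was Chl1, a neural adhesion molecule gene, at 0.30. Evpl lay closest to Sema3f, at 0.05, and Foxe1, a forkhead factor gene, at 0.06. Ppl lay closest to Rab5a, at 0.03, and Serpinb2, at 0.04, and Cnfn and Krtdap both had the hexokinase gene Hk2 among their closest 2. Sprr2d lay closest to Rab40b, at 0.22, and Sprr1b to the signalling protein gene Ccn4, at 0.12. Small differences from day 0 are shared by many genes, so small distances are easily met by Evpl, Ppl, Cnfn and Krtdap.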

How the data were processed

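RNA from 4 ROE2 cultures was measured on 4 Affymetrix 3′ arrays, from 500 ng of total RNA with integrity numbers of 9.5 to 10 per the labels. The authors deposited RMA output on a log2 scale, as the submitters' processing notes name RMA, which corrects background, equalises the arrays' distributions and summarises each probe set. Software and settings: not given in the sources used here. Values ran from 1.55 to 14.23, from which the base of the logarithm was inferred, and each array had a median of 5.22 to 5.24. The number of arrays limits the precision.

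Symbols came from the platform annotation, updated through Entrez identifiers, and 20832 of 31099 probe sets had 1 symbol, 436 several and 9831 none. Where a gene had several probe sets, the one with the highest mean stood for it. With 1 array per group a fixed rule of size replaced a test. It was tested on simulated data. The rule for named genes took all envelope genes, the 3 largest day 9 differences in each list and the 2 closest courses per gene, not all of which are printed, with Gapdh, which read 13.35 on day 9 and 13.38 on day 0. Actb and Ppia were not named on the array. Other genes of the lists are named outside the rule, after their values were seen. The genes and lists were chosen with earlier results of these data known. Znf750 is the current symbol of the listed Zfp750. Alternatives were other probe set choices, floors, scalings and thresholds. Scripts ran in Python 3.11.15 (numpy 2.4.6, pandas 2.3.3, matplotlib 3.10.9).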

Additional observations from a re-analysis of the deposited data

How the results depend on the processing

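The number of envelope genes called higher on day 3, 1 of 9, was 2 of 10 with a floor of 5 or with no floor, which admit Ivl. It was 2 with probe sets that carry no cross-hybridisation mark or with the second Krtdap probe set (chosen after seeing the data). For the envelope genes both settings are the same change. At a threshold of 1.5-fold the number was 6, and 10.2% of all genes passed. The number on day 6, 3, was 6 with arrays centred on the median gene, when 8.18% of all genes were called higher, and 6 at 1.5-fold, which 12.1% passed. The number on day 9, 5, was 2 under spike-in centring, where 1.91% of all genes were called higher, and 2 at 3-fold, which 2.10% passed, with Loricrin and Sprr3 in both. The members' medians of 0.97 and 1.00 on days 6 and 9 were 0.58 and 0.37 under spike-in centring. In total 49 of the 60 counts and medians under other settings stayed within 1.5 times (counts) or within 0.26 (medians, the robust SD over genes of day 9 minus day 6). Some of these settings could hardly move the envelope genes, since 9 of the 10 have 1 probe set and the 9 measured also pass a floor of 8. Others repeat the same change, so the tally is no measure of stability. The day 9 differences of Sprr1a, Sprr1b and Ivl, none of them called, were 0.32, 0.39 and 0.62. Under spike-in centring they became -0.31, -0.24 and -0.01. No paired analysis was possible because each day has 1 array. Depth in the sense of signal limits Ivl, near the bacterial controls. Sprr1a, Cnfn and Krtdap lie near the top of the scale, and whether that limited them was not tested.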
